A study of Danio rerio with 20 samples.

Results

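Zebrafish genes of the spliceosome, the machine that removes introns from pre-mRNA, were followed here across 11 acute lymphoblastic leukemias. The genes were chosen by name alone: every row of the count table whose symbol begins with srsf, snrp, hnrnp, sf3a, sf3b, u2af or prpf, ignoring case. Of the 32105 genes in the table, 76 met that rule, and all 76 had enough counts to be tested. Among them are 17 SR protein genes, 24 hnRNP genes, 2 genes of the U1 snRNP, 3 genes of U1-associated and PRPF19 complex proteins, 14 genes of the U2 snRNP and 3′ splice site, 8 genes of the Sm core and 8 PRPF genes of the tri-snRNP and its partners. Genes whose symbol begins with snrnp fall outside this rule and were not counted among the 76.

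Bulk polyA RNA of leukemia cells in CG1 strain zebrafish (cell type given as blood) was sequenced from 11 tumors in 20 libraries, and each library carries a label of high or low self-renewal capacity. The high label is on 8 tumors (8.4.1.1.1, 14.1.1.1, 4.3.1, 8.3, 2.1, 15.2, 13.1.1 and 7.2.1, in 14 libraries) and the low label on 3 tumors (9.2, 10.2 and 12.2, in 6 libraries). Self-renewal here is the share of leukemia cells able to start a new leukemia, and the series text puts the boundary at 1%. That text counts 6 high and 5 low tumors, whereas the labels give 8 and 3, and the labels were followed. All 11 tumors share the strain and the RNA protocol. The labels name no transgene, no age, no lineage and no fish of origin, and do not say whether 8.3 and 8.4.1.1.1 are related, so the p-values below reflect the spread among 11 tumors that may not be fully independent.

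The spliceosome is built from small nuclear ribonucleoproteins (snRNPs), most with an RNA that carries a ring of Sm proteins and proteins of its own. The U1 snRNP finds the 5′ splice site, U2AF and the SF3A and SF3B complexes of the U2 snRNP settle on the 3′ splice site and branch point, and the U4/U6.U5 tri-snRNP then joins to form the catalytic machine. SR proteins mostly promote the use of nearby exons, while hnRNPs bind nascent RNA and often have the opposite effect. SF3B1, U2AF1 and SRSF2 are recurrently mutated in human blood cancers. The zebrafish genome keeps duplicates of many of these genes, and several duplicates carry the same human-style symbol in the name table. Symbols were shared in this way by 16 of the 76 genes (SRSF1, SRSF3, SRSF6, U2AF2, SNRPD3, HNRNPAB, HNRNPK and HNRNPU, a pair each), which are told apart below by the last 5 digits of their Ensembl identifier. Which of them is the a and which the b copy was not determined, and reads of near-identical copies may have been split or lost in counting.

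Tumor totals ran between 11573276 counts in 14.1.1.1 and 32466048 counts in 8.3. Markers of T cells, 13 genes, summed to between 4368 and 5222 CPM (counts scaled by TMM to a common library size) in the high tumors, against 43.3 CPM in 9.2, 342 CPM in 10.2 and 946 CPM in 12.2. Markers of B cells, 14 genes, summed to between 6.09 and 46.0 CPM in the high tumors, against 1860 CPM in 9.2, 1165 CPM in 10.2 and 503 CPM in 12.2. Of the low tumors, 12.2 had the largest T-cell sum and the smallest B-cell sum, so the comparison was made with and without it. Among defining T-cell markers lck had 503 to 1219 CPM in the high tumors, against 0.783 CPM in 9.2, 13.5 CPM in 10.2 and 266 CPM in 12.2. Of 13 T-cell markers, cd28 went the other way, highest in 9.2 at 10.9 CPM, and satb1a was at 0 in 9.2 and 12.2 but also under 1 CPM in 4 high tumors. PAX5, a defining B-cell marker, had 0 to 0.51 CPM in the high tumors, against 115 CPM in 9.2, 178 CPM in 10.2 and 131 CPM in 12.2. Of the 14 B-cell markers, cd22 went the other way, highest in 15.2 at 1.83 CPM and at most 0.142 CPM in the low tumors. BTK had 3.02 CPM in 15.2, above 9.2 (1.64 CPM) and 12.2 (0.307 CPM). In 12.2, ighm (1.23 CPM), blnk (1.05 CPM) and ighd (0.0615 CPM) lay within the range of the high tumors. Lineage is not a label, so a difference between high and low tumors and a difference between T-cell-rich and B-cell-rich tumors cannot be told apart. In bulk RNA, fewer cells of a type and less RNA per cell cannot be told apart either. Erythroid markers (9 genes) reached at most 52.9 CPM in the high tumors and 31.7 CPM in the low tumors. Neutrophil and macrophage markers (16 genes) summed to 27.2 to 153 CPM in the high tumors, against 21.0 to 104 CPM in the low tumors. A single gene, SPI1, made up 62.2 of 74.6 CPM in 9.2 and 77.5 of 104 CPM in 10.2. Markers of stroma and endothelium (6 genes) summed to 1.11 to 14.4 CPM in the high tumors, against 3.63 to 36.4 CPM in the low tumors. The 36.4 CPM is that of 12.2, where a single FN1 gene had 35.3 CPM. Thrombocyte markers (5 genes) summed to 0.298 to 5.96 CPM in the high tumors, against 0.193 to 0.605 CPM in the low tumors. The part of these cells in the results was not tested.

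As a group, these splicing genes made up a similar and small share of each tumor's counts. The share was between 1.288% in 13.1.1 and 1.672% in 8.4.1.1.1 among the high tumors, against 1.723% in 9.2, 1.57% in 10.2 and 1.542% in 12.2. The ranges overlapped, with the lowest value in a high tumor and the highest in a low tumor.

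Their levels varied less between tumors than those of most genes. The standard deviation of log2 CPM among the 8 high tumors had a median of 0.31 over the 76 genes, against 0.61 over all 16008 genes tested. Over all 11 tumors, 37 of the 76 (48.7%) stayed within a 2-fold range, against 10.6% of all genes tested. Low counts widen such ranges, and the 2 sets were not matched for level. The narrowest range was that of U2AF1, the small subunit that reads the AG at the end of an intron, at 1.44-fold: its lowest, median and highest levels were 86.6, 110 and 123 CPM in the high tumors, against 107 CPM in 9.2, 104 CPM in 10.2 and 125 CPM in 12.2. Next came hnrnpa1a, a copy of the gene for the splicing repressor hnRNP A1, at 1.49-fold, prpf38b at 1.51-fold and HNRNPM at 1.52-fold. At the other end, 6 genes spread over more than 4-fold: srsf3a, hnrnpa3, srsf2b, hnrnph1, hnrnph3 and PRPF19.

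**Figure D1:**
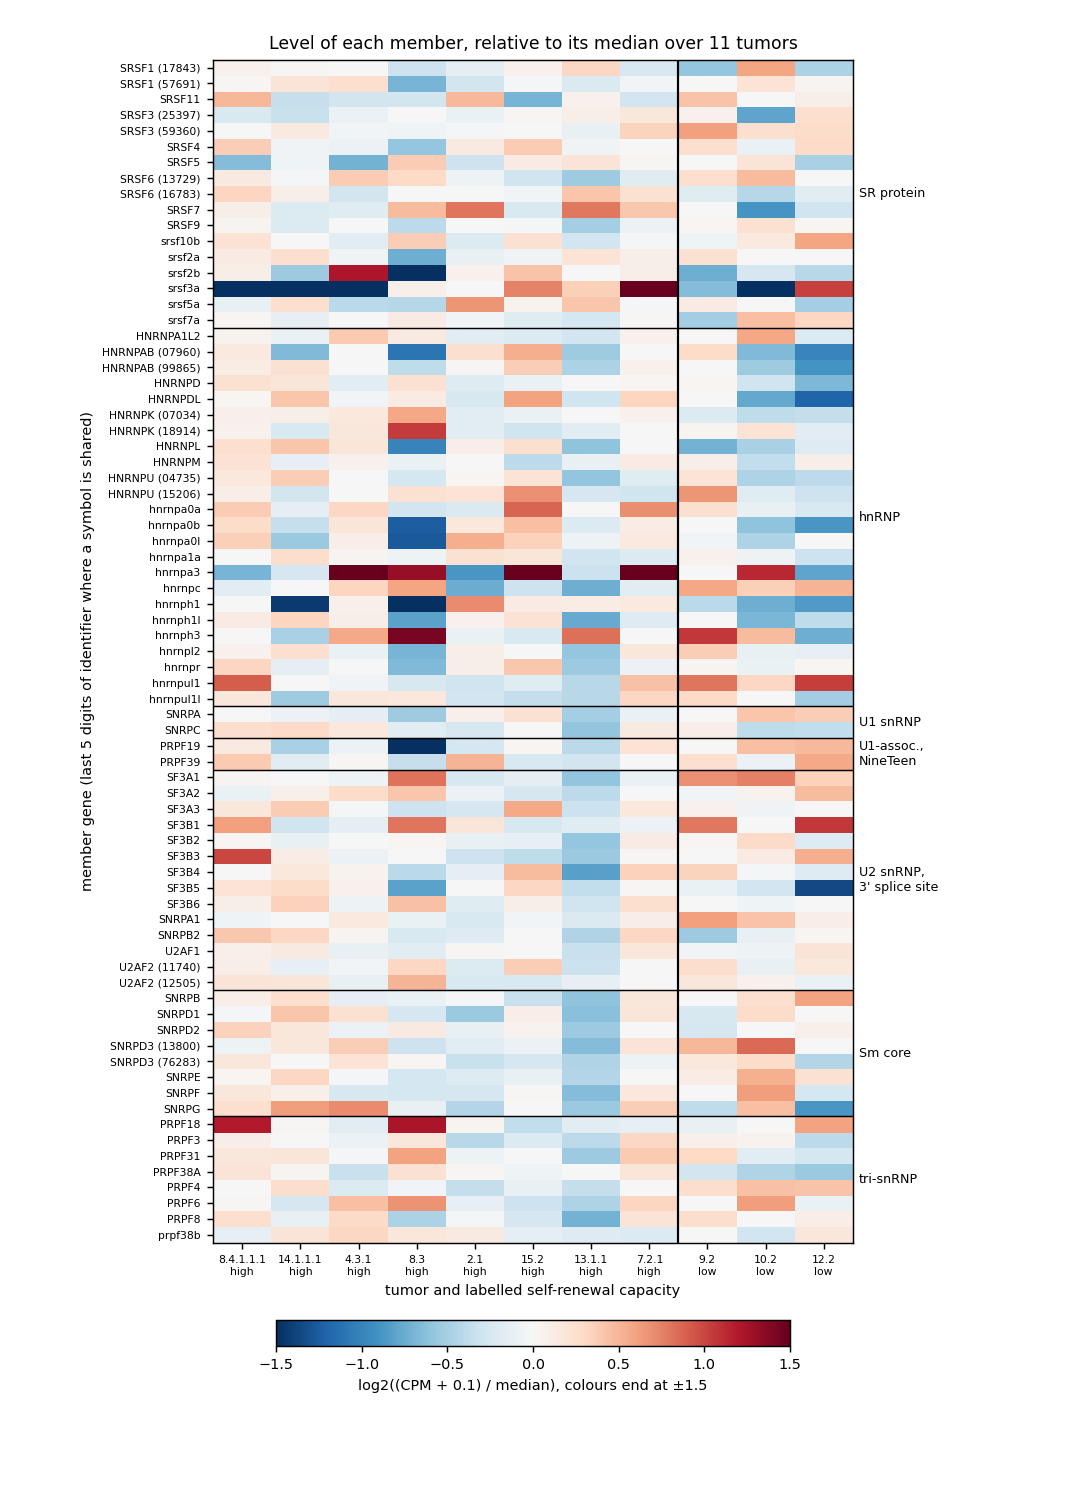
Level of 75 of the 76 genes (rows, grouped by role) in each tumor (columns, 8 high then 3 low), as the log2 ratio of CPM plus a pseudocount to the gene's median over the 11 tumors. Red is above and blue below the median, with colours ending at the values on the bar; the mostly blue column is 13.1.1, where 11 of 76 genes lie above their median, and the strong colours in 8.3 are its 11 genes over 2-fold from the other tumors.

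The first question was which splicing genes differ between high and low tumors. None of the 76 passed the test in either direction (edgeR quasi-likelihood test, Benjamini-Hochberg over all 16008 genes, adjusted p threshold 0.05), against 9.20% of all genes, 641 with more and 832 with less RNA in high tumors. At an unadjusted p under 0.05, 3 of the 76 were higher and 7 were lower, against 13.2% and 12.3% of all genes. DESeq2 had 11 of the 76 at an unadjusted p under 0.05 and called 3 after adjustment, PRPF38A higher and PRPF4 and SNRPA1 lower, where it called 10.4% of all genes higher and 7.38% lower. limma-voom had 11 at an unadjusted p under 0.05 and called 0. The shares of all genes at an unadjusted p under 0.05 were not counted for DESeq2 or limma-voom. Their counts of 11 therefore cannot be set against a background.

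The estimates were small and the intervals fairly narrow. The log2 fold change, high over low, ran between -0.66 (hnrnpul1) and 0.72 (hnrnpa3), with a median of -0.03 over the 76 genes and 0.04 over all genes tested. Of the 76 estimates, 35 were positive and 41 negative, against 8433 positive and 7573 negative over all genes tested. The size of the log2 fold change, ignoring sign, had a median of 0.21 over the 76 and 0.51 over all genes tested. The median standard error was 0.23 over the 76 and 0.43 over all genes tested. For 58 of the 76 (76.3%) the 95% interval of the fold change lay within 2-fold either way, against 28.8% of all genes tested, so for these 58 a difference of 2-fold or more lies outside the interval. For the other 18 genes the intervals reach past 2-fold.

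**Figure D2:**
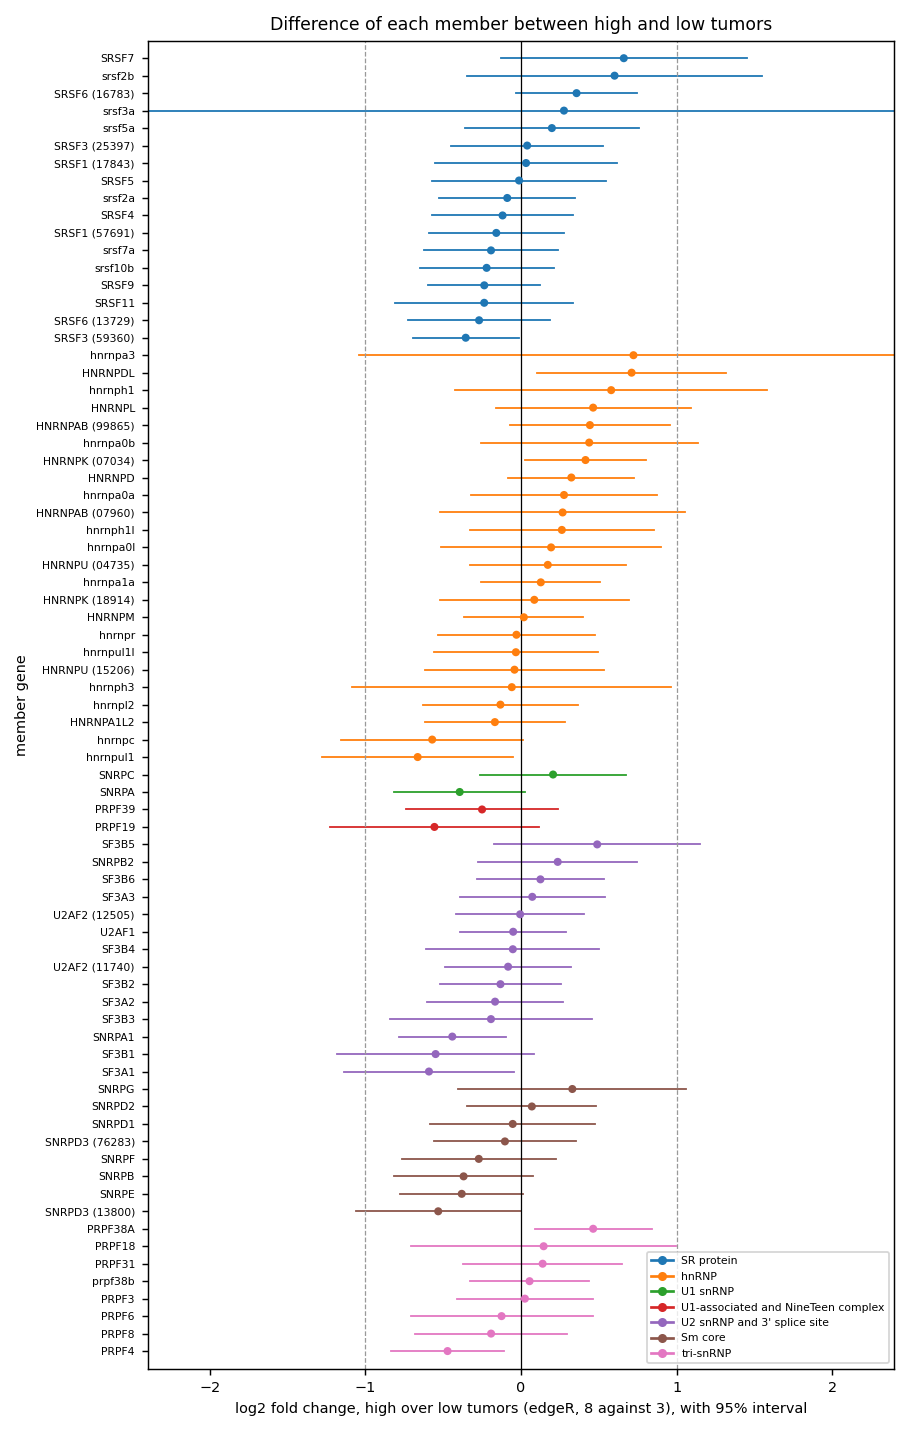
Log2 fold change of 75 of the 76 genes, high over low tumors, with its 95% interval (edgeR, 8 against 3 tumors), coloured by role. Dashed lines mark 2-fold either way; 57 of these intervals lie between them, and those of srsf3a and hnrnpa3 run off the axis.

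The comparison was repeated without tumor 12.2. The test was passed by 7.41% of 16850 genes, and by 0 of the 76 in either direction. At an unadjusted p under 0.05, PRPF38A was higher and SF3A1, SNRPA1 and SNRPD3 (13800) were lower, against 11.9% and 9.99% of all genes. The smallest adjusted p of these was 0.104, for SNRPA1, with a log2 fold change of -0.53 ± 0.17 (SE). Estimates over the 76 then ran between -0.68 (SNRPD3, 13800) and 1.71 (srsf3a), and that of hnrnpa3 was 0.40.

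SR protein genes lay on both sides of zero, 7 with a positive and 10 with a negative log2 fold change, and a median of -0.09 (TMM scaling; 8 and 9 with RLE factors). The smallest p in this group was for SRSF3 (59360), a copy of the gene for the smallest SR protein, which also couples splicing to mRNA export. It had 137, 147 and 187 CPM as the lowest, median and highest of the high tumors, against 228 CPM in 9.2, 175 CPM in 10.2 and 179 CPM in 12.2. All high tumors but 7.2.1 lay below all 3 low tumors, and 7.2.1 lay above 10.2 and 12.2. Its log2 fold change was -0.36 ± 0.16 (SE), with an edgeR adjusted p of 0.179. The other shared-symbol copy, SRSF3 (25397), had 20.7, 25.5 and 29.5 CPM in the high tumors, against 27.4 CPM in 9.2, 15.2 CPM in 10.2 and 31.3 CPM in 12.2, so the high tumors lay inside the range of the low tumors.

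The hnRNP genes were the group with most positive estimates, 16 of 24, with a median log2 fold change of 0.18. The median was 0.21 with RLE and 0.19 with upper-quartile factors. These scalings differ little, with a median over all genes of 0.03 to 0.06, so they are a weak check of sign. Without 12.2, 17 of the 24 estimates were positive, with a median of 0.13. HNRNPDL encodes a relative of hnRNP D (AUF1), which binds AU-rich RNA. Its lowest, median and highest levels were 112, 145 and 210 CPM in the high tumors, against 138 CPM in 9.2, 80.8 CPM in 10.2 and 60.0 CPM in 12.2. Tumor 9.2 lay inside the high range, and 10.2 and 12.2 lay below every high tumor. The log2 fold change was 0.71 ± 0.28 (SE), with an edgeR adjusted p of 0.137. Without 9.2 it was 1.11, with an adjusted p of 0.0447. Leaving out any other tumor gave no call of HNRNPDL. Tumor 9.2 is the low tumor against the difference, so the p without it is no evidence for a difference.

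HNRNPK (07034), a copy of the gene for the poly(C)-binding hnRNP K, was the single gene of the 76 with every high tumor above every low tumor, a pattern that 6.03% of all genes tested show. It had 123, 145 and 206 CPM as the lowest, median and highest of the high tumors, against 119 CPM in 9.2, 106 CPM in 10.2 and 108 CPM in 12.2. The nearest tumors, 2.1 and 9.2, were only a few CPM apart. Between single libraries the groups overlapped, with 117.1 CPM in the first library of 2.1 and 118.6 CPM in the first of 9.2. Its log2 fold change was 0.41 ± 0.18 (SE), with an edgeR adjusted p of 0.174. Without 12.2 it was again the single gene of the 76 set apart in this direction, as were 9.16% of all genes.

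hnrnpul1, related to the scaffold attachment factor hnRNP U, had the most negative estimate of all 76. Its lowest, median and highest levels were 104, 128 and 260 CPM in the high tumors, against 241 CPM in 9.2, 172 CPM in 10.2 and 285 CPM in 12.2. The high value of 260 CPM belongs to 8.4.1.1.1 and lies above 9.2 and 10.2, while 7.2.1 with 188 CPM lies above 10.2. hnrnpul1 had a log2 fold change of -0.66 ± 0.28 (SE) with an edgeR adjusted p of 0.164, and without 8.4.1.1.1 it was -0.83 with an adjusted p of 0.046. Leaving out any other tumor gave no call of hnrnpul1. Tumor 8.4.1.1.1 is the high tumor furthest against the difference, so the p without it is no evidence for a difference.

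Genes of the U2 snRNP and 3′ splice site had 4 positive and 10 negative estimates, with a median of -0.07 (5 and 9 with RLE factors). Without 12.2 the split was 7 and 7, with a median of 0.01. SNRPA1 encodes a protein that sits on a stem-loop of the U2 RNA. Its lowest, median and highest levels were 51.7, 58.4 and 67.0 CPM in the high tumors, against 92.4 CPM in 9.2, 81.5 CPM in 10.2 and 64.8 CPM in 12.2. Tumors 9.2 and 10.2 lay above every high tumor, and 12.2 lay at the upper end of the high range. SNRPA1 had a log2 fold change of -0.44 ± 0.16 (SE), with an edgeR adjusted p of 0.107.

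SF3A1 encodes the largest subunit of SF3A. It had 147, 210 and 393 CPM as the lowest, median and highest of the high tumors, against 359 CPM in 9.2, 375 CPM in 10.2 and 283 CPM in 12.2. A single high tumor, 8.3, held the value of 393 CPM, and the other 7 lay at or below 229 CPM, under all 3 low tumors. SF3A1 had a log2 fold change of -0.59 ± 0.25 (SE) with an edgeR adjusted p of 0.165 over all tumors, and -0.75 with an adjusted p of 0.0184 without 8.3. Calls over all genes also rose without 8.3, from 1473 to 1789. Leaving out any other tumor gave no call of SF3A1. Tumor 8.3 is the one against the difference, so the p without it is no evidence for a difference. SF3B1, the branch-point factor that is often mutated in human blood cancers, had 759, 867 and 1632 CPM in the high tumors, against 1619 CPM in 9.2, 936 CPM in 10.2 and 1960 CPM in 12.2, and a log2 fold change of -0.55 ± 0.29 (SE) with an adjusted p of 0.267. Without 12.2 it was -0.27, with an adjusted p of 0.685.

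In the U1 snRNP, SNRPA, whose protein binds a stem-loop of U1 RNA, had 38.4, 52.0 and 65.2 CPM as the lowest, median and highest of the high tumors, against 56.0 CPM in 9.2, 74.4 CPM in 10.2 and 72.0 CPM in 12.2. Its log2 fold change was -0.39 ± 0.19 (SE), with an edgeR adjusted p of 0.228, and the groups overlapped. SNRPC, whose protein helps U1 grip the 5′ splice site, had a positive estimate of 0.21 ± 0.22 (SE). All 3 genes of the U1-associated and PRPF19 complex group had negative estimates.

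Sm core genes, whose proteins form the ring of most snRNPs, had 2 positive and 6 negative estimates. Their median was -0.19, with -0.16 under RLE and -0.20 under upper-quartile scaling, which differ little from TMM. SNRPD3 (13800) had 13.2, 19.5 and 26.9 CPM as the lowest, median and highest of the high tumors, against 29.3 CPM in 9.2, 37.3 CPM in 10.2 and 20.7 CPM in 12.2. Tumor 12.2 lay within the high range and the others above it. The log2 fold change was -0.53 ± 0.24 (SE), with an edgeR adjusted p of 0.196. SNRPE and SNRPB had estimates of -0.38 ± 0.18 and -0.37 ± 0.20 (SE), with adjusted p of 0.212 and 0.286. Tumor 12.2 held the highest SNRPB level, 437 CPM, and without it the SNRPB estimate was -0.16. The libraries of 12.2 differed for SNRPB, with 349 and 599 CPM.

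Among the PRPF genes of the tri-snRNP and its partners, 5 estimates were positive and 3 negative, with a median of 0.04, and 4 and 4 without 12.2. PRPF4 encodes a WD-repeat protein of the U4/U6 snRNP. Its lowest, median and highest levels were 34.2, 41.8 and 52.8 CPM in the high tumors, against 53.1 CPM in 9.2, 59.7 CPM in 10.2 and 59.3 CPM in 12.2. Every high tumor lay below every low tumor, though 14.1.1.1 and 9.2 were almost level. Between single libraries the groups overlapped, with 53.15 CPM in 14.1.1.1 and 48.57 CPM in the second library of 9.2. By tumor, PRPF4 was 1 of 2 genes of the 76 set apart in this direction, as were 5.83% of all genes tested. Its log2 fold change was -0.47 ± 0.17 (SE), with an edgeR adjusted p of 0.104, the smallest of the 76. Without 12.2, 4 genes were set apart in this direction, PRPF4, SNRPA1 and SNRPD3 (13800) among them, against 9.56% of all genes.

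PRPF38A, a protein of the precatalytic B complex, had 30.1, 38.5 and 44.4 CPM as the lowest, median and highest of the high tumors, against 31.3 CPM in 9.2, 27.7 CPM in 10.2 and 25.7 CPM in 12.2. A single high tumor, 4.3.1, lay below 9.2, and the other 7 lay above all 3 low tumors. The log2 fold change was 0.46 ± 0.17 (SE), with an edgeR adjusted p of 0.118. DESeq2 gave 0.49 with an adjusted p of 0.0153. PRPF8, the large protein at the heart of the spliceosome, had 397, 621 and 792 CPM in the high tumors, against 777 CPM in 9.2, 650 CPM in 10.2 and 693 CPM in 12.2, and its estimate was -0.19 ± 0.22 (SE).

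**Figure D3:**
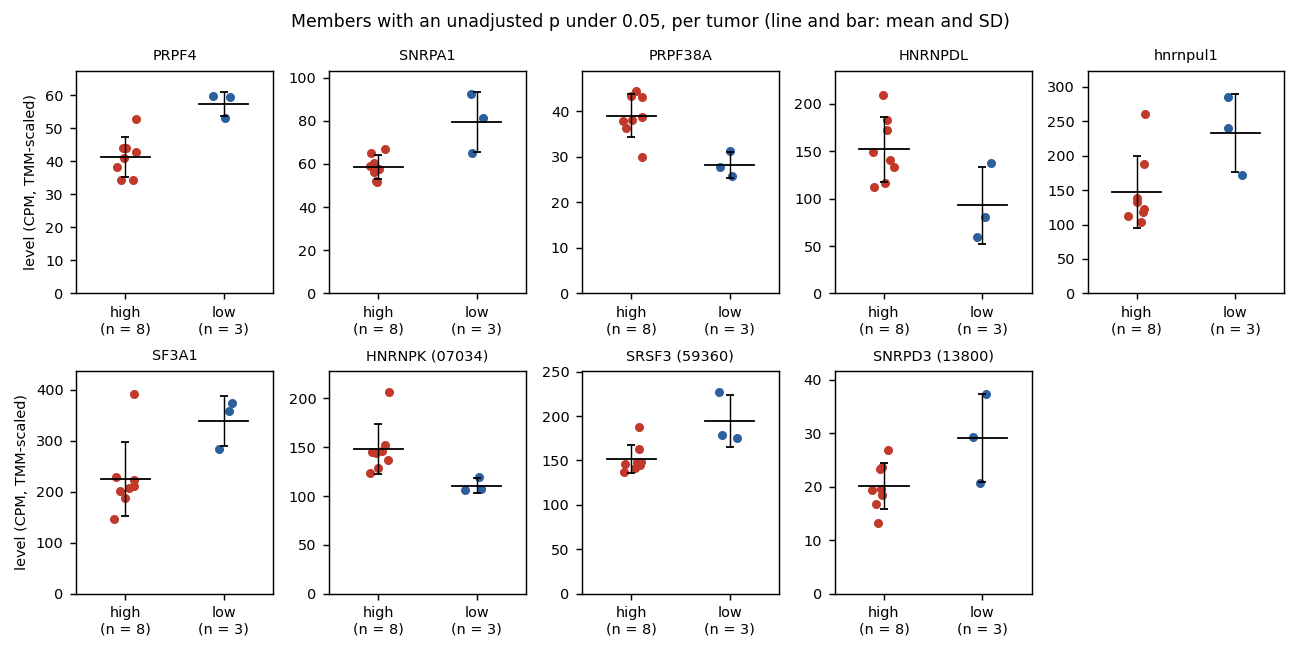
Level (TMM-scaled CPM, axes from 0) of 9 of the 10 genes with an unadjusted p under 0.05 in each of 8 high and 3 low tumors; lines are means and bars standard deviations. The groups do not overlap in PRPF4 and HNRNPK (07034), and the isolated high tumor in SF3A1 (393 CPM) and HNRNPK (206 CPM) is 8.3.

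The next comparison asked whether copies of a gene shift against each other between high and low tumors. The log2 ratio of both genes was taken within each tumor, which removes scaling, for 20 pairs of 34 genes whose symbols are shared or differ by a final letter, and its mean was compared between groups by an exact two-sided permutation test over tumors. With 165 arrangements the smallest possible p is 0.00606. After adjustment over the 20 pairs, 0 pairs passed, and the smallest adjusted p was 0.242. A single pair at the smallest possible p could not have passed that adjustment by itself. The count of 0 therefore does not show that no pair shifts. Before adjustment 3 pairs had p under 0.05.

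In the SNRPD3 pair (13800 over 76283) the groups did not overlap. The log2 ratio averaged -0.69 ± 0.24 (SD, n = 8) in the high tumors and -0.25 ± 0.12 (SD, n = 3) in the low tumors (exact permutation p = 0.0121). The high tumors lay between -1.04 and -0.43, against -0.37 in 9.2, -0.13 in 10.2 and -0.26 in 12.2. The nearest tumors were 7.2.1 and 9.2, and between single libraries the groups overlapped. The second library of 7.2.1 had 22.1 CPM of 13800 and 28.2 CPM of 76283. That is a larger ratio than in the first library of 12.2, with 17.6 and 23.3 CPM. SNRPD3 (76283) itself had 24.8, 32.9 and 38.9 CPM as the lowest, median and highest of the high tumors, against 37.8 CPM in 9.2, 40.9 CPM in 10.2 and 24.8 CPM in 12.2, and a log2 fold change of -0.10 ± 0.21 (SE), which was -0.25 without 12.2.

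For HNRNPK (07034 over 18914) the mean log2 ratio was 0.01 ± 0.23 (SD, n = 8) in the high tumors and -0.36 ± 0.21 (SD, n = 3) in the low tumors (exact permutation p = 0.0424). The groups overlapped through 8.3, whose ratio of -0.49 lay between those of 10.2 (-0.60) and 9.2 (-0.27). For SRSF3 (25397 over 59360) it was -2.58 ± 0.21 (SD, n = 8) in the high tumors and -3.03 ± 0.50 (SD, n = 3) in the low tumors (exact permutation p = 0.0485). There 12.2, at -2.52, lay amid the high tumors, while 9.2 (-3.05) and 10.2 (-3.52) lay below all of them.

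The differences in the remaining pairs did not reach p under 0.05. The mean log2 ratio of SRSF7 (01057) over srsf7a differed by 0.77, high minus low, with -5.17 ± 0.45 (SD) in the high tumors and -5.95 ± 0.93 (SD) in the low tumors, and an exact permutation p of 0.097. That of hnrnpul1 over hnrnpul1l differed by -0.67 (exact p = 0.0606), and 12.2 (0.12) stood above all other tumors in it. SRSF6 (13729 over 16783) differed by -0.63 (exact p = 0.0727). HNRNPD over HNRNPDL differed by -0.42, and PRPF38A over prpf38b, which are separate genes in human too, by 0.40 (exact p = 0.0848 each). In the other 12 pairs the exact p was 0.133 or more.

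**Figure D4:**
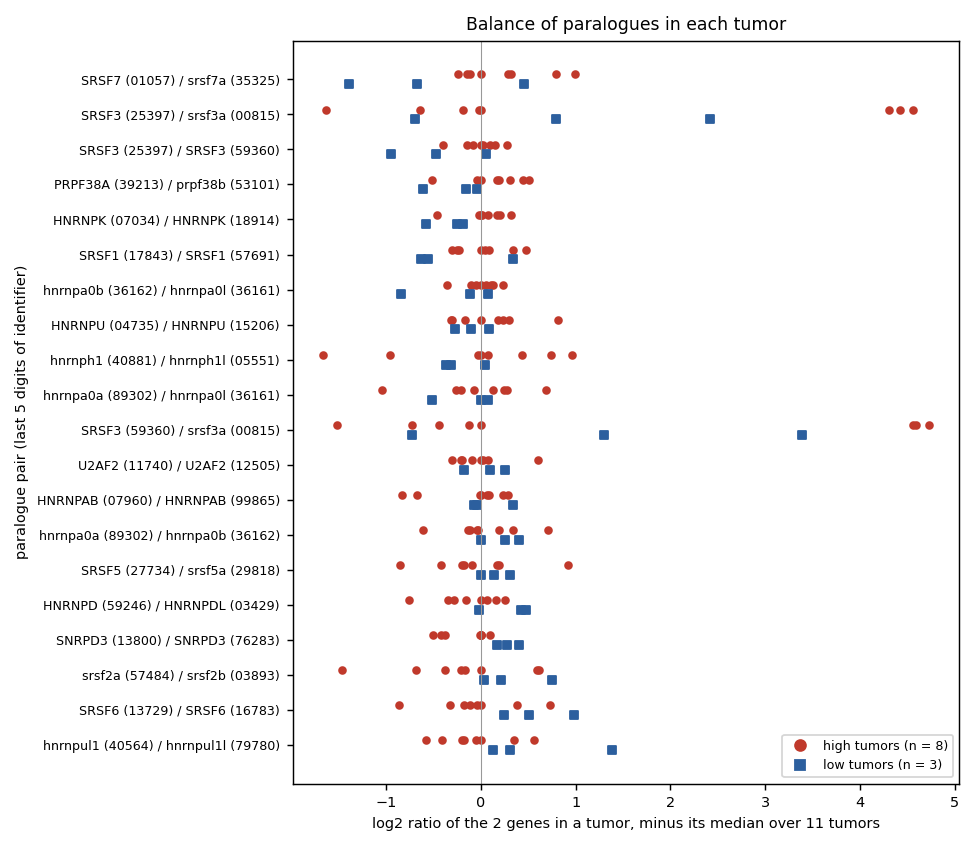
Log2 ratio of the genes of each of 20 pairs in each tumor, minus the pair's median over the 11 tumors (red circles, 8 high tumors; blue squares, 3 low tumors), ordered by the difference between groups. In SNRPD3 the squares lie apart from the circles; the pairs with srsf3a are wide because 3 high tumors have no srsf3a count.

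Some copies varied strongly among tumors of the same label. The most variable was srsf3a, named as a copy of the SRSF3 gene. It had 0 counts in 8.4.1.1.1, 14.1.1.1 and 4.3.1, where the limit that 0 counts allow is 0.257, 0.255 and 0.129 CPM (counting error only). In the other high tumors it had 71 counts in 8.3, 37 in 2.1, 73 in 15.2, 58 in 13.1.1 and 190 in 7.2.1, against 37 in 9.2, 5 in 10.2 and 72 in 12.2. Those counts correspond to 2.12 to 8.09 CPM in the 5 high tumors, against 1.32 CPM in 9.2, 0.161 CPM in 10.2 and 4.42 CPM in 12.2. Tumors with hardly any srsf3a count were thus found under both labels. The estimate of the log2 fold change was 0.28 ± 1.53 (SE), and 1.71 ± 1.99 (SE) without 12.2.

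The next most variable were hnRNP genes and another SR gene. hnrnpa3, a gene of the hnRNP A/B family, had low levels throughout: 0.517, 1.77 and 4.61 CPM as the lowest, median and highest of the high tumors, against 1.03 CPM in 9.2, 2.38 CPM in 10.2 and 0.553 CPM in 12.2. The high tumors split widely, with 4.3.1, 8.3, 15.2 and 7.2.1 at 2.70 CPM or more and the other 4 below 1 CPM. hnrnph1, a copy of the gene for the G-tract-binding hnRNP H1, had 7.55, 29.4 and 45.1 CPM as the lowest, median and highest of the high tumors, against 20.7 CPM in 9.2, 16.5 CPM in 10.2 and 15.3 CPM in 12.2. The extremes were both high tumors, 8.3 at the bottom with 14.1.1.1 (10.1 CPM) next to it and 2.1 at the top, so the estimate of 0.58 ± 0.46 (SE) sits within that spread. Its relative hnrnph3 had 4.76, 6.67 and 18.2 CPM in the high tumors, against 14.1 CPM in 9.2, 9.33 CPM in 10.2 and 3.99 CPM in 12.2. In hnrnph3 it was 8.3 that stood at the top.

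srsf2b, a copy of the gene for the exon-enhancer-binding protein SRSF2, had 10.7, 32.9 and 72.3 CPM as the lowest, median and highest of the high tumors, against 18.7 CPM in 9.2, 26.2 CPM in 10.2 and 23.4 CPM in 12.2. Tumor 8.3 was lowest and 4.3.1 highest, and the low tumors lay between them. The other copy, srsf2a, had 115, 194 and 227 CPM in the high tumors, and its low tumors ran between 190 and 224 CPM, a much narrower spread.

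**Figure D5:**
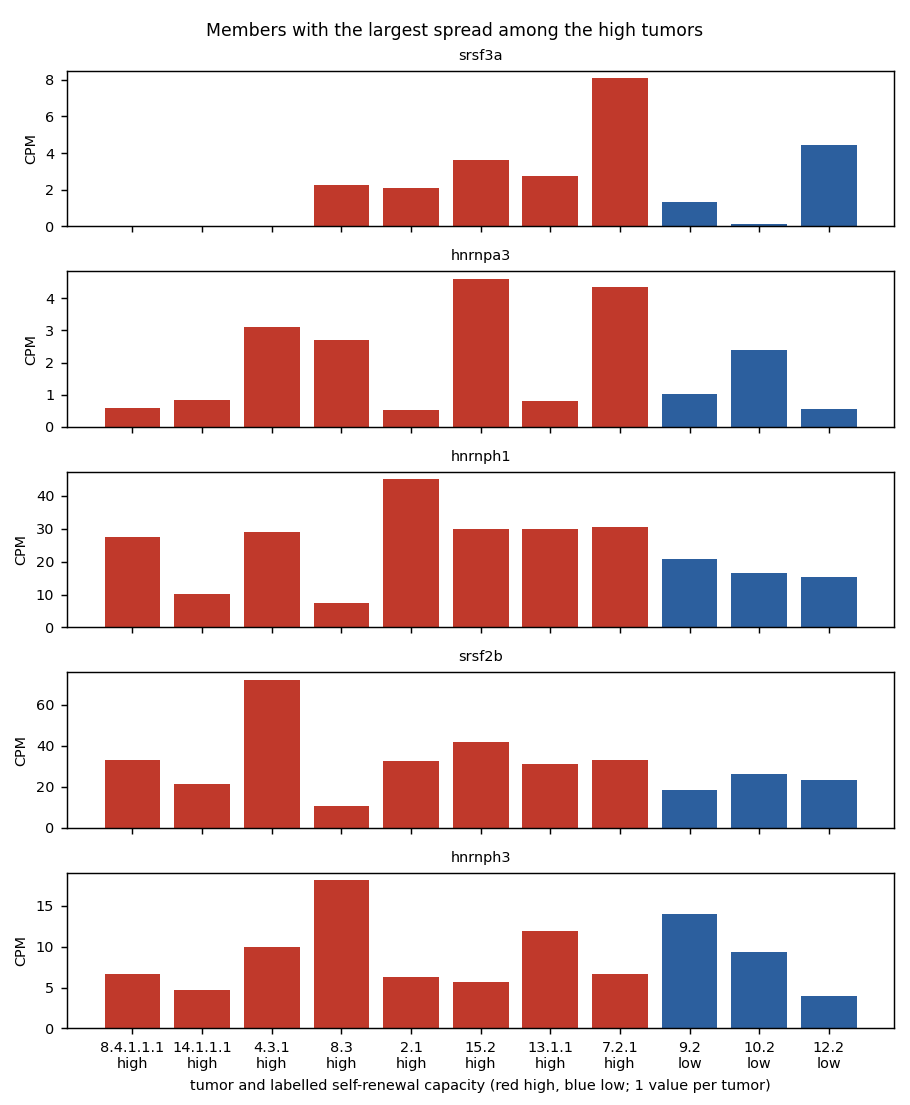
CPM (bars from 0, a value per tumor) of the 5 genes with the largest standard deviation of log2 CPM among the high tumors. srsf3a is at 0 in 3 high tumors, and tumor 8.3 has the least hnrnph1 and srsf2b but the most hnrnph3.

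Each tumor was then set against the median of the other 10, counting genes over 2-fold away in either direction, as a description with no test. Among the 76 genes 59 never went that far in any tumor and 17 did at least once. In the high tumors the counts were 4 genes in 8.4.1.1.1 (15.3% of all genes tested), 2 in 14.1.1.1 (23.0%), 3 in 4.3.1 (20.5%), 11 in 8.3 (36.7%), 1 in 2.1 (22.2%), 2 in 15.2 (21.5%), 0 in 13.1.1 (20.4%) and 2 in 7.2.1 (23.9%). In the low tumors they were 1 gene in 9.2 (29.0%), 2 in 10.2 (29.2%) and 6 in 12.2 (29.5%). In every tumor the share of the 76 was below that of all genes. Of the 34 cases, 30 held in each library of the tumor taken alone. These include the 4 genes of 8.4.1.1.1 and the 2 of 14.1.1.1. Each of those tumors has a single library, so their cases could not be checked between libraries.

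Tumor 8.3 had the most genes over 2-fold away, both of the 76 and of all genes. Its median absolute log2 departure from the 11-tumor median, 0.31 over the 76, was below the 0.37 of 13.1.1. Tumor 8.3 had more of 4 of its genes over 2-fold away: PRPF18, a factor of the second catalytic step, at 62.8 CPM against a median of 25.8 CPM in the others, HNRNPK (18914) at 289 against 132 CPM, hnrnph3 and hnrnpa3. It had less of 7, which apart from PRPF19 and srsf2b are all hnRNP genes. PRPF19, the ubiquitin ligase of the complex named after it, was at 51.3 CPM against 165 CPM, and HNRNPL, which binds CA-rich RNA, was at 131 against 271 CPM. HNRNPAB (07960) was at 252 against 541 CPM, hnrnpa0b at 253 against 620 CPM and hnrnpa0l at 431 against 1071 CPM.

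The other departures were fewer. PRPF18 was also raised in 8.4.1.1.1, at 61.3 CPM against 25.8 CPM in the others, and so was SF3B3, at 624 against 311 CPM. In the low tumor 12.2, hnrnpul1 was at 285 against 136 CPM and SF3B1 at 1960 against 908 CPM. The libraries of 12.2 had 2023 and 1761 CPM of SF3B1, and only the first of them was over 2-fold from the other tumors. HNRNPDL was at 60.0 against 139 CPM and SF3B5, a small subunit of SF3B, at 10.5 against 27.2 CPM in 12.2. Both libraries of 12.2 were over 2-fold away for HNRNPDL, at 60.7 and 56.5 CPM, but only the first of them for SF3B5, at 8.79 and 13.6 CPM.

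A different pattern, shallow and broad, was seen in the high tumor 13.1.1. No single gene was 2-fold away, yet 61 of the 76 lay below the median of the other tumors. Over all 76 genes, 13.1.1 had a median departure of -0.36 on the log2 scale, where all genes tested had a median of 0.01. It was the lowest of the 11 tumors for 29 of the 76 genes, and 11 of 76 (14.5%) lay above their own 11-tumor median, against 45.9% of all genes tested. Its libraries taken apart had 61 and 57 genes below the others, with medians of -0.43 and -0.19. They differed from each other by a median of 0.26 over the 76 genes, the largest such difference of the 9 tumors with 2 libraries. The second median, -0.19, was like those of the libraries of 8.3 (-0.17 and -0.20) and the first library of 2.1 (-0.18). Those libraries had 43, 46 and 52 genes below the others. The erythroid marker sum was also highest in 13.1.1, at 52.9 CPM, and the neutrophil and macrophage sum was 121 CPM, second to 15.2 (153 CPM). The B-cell sum was the highest of the high tumors, at 46.0 CPM, but SYK alone made up 30.5 CPM of it, so that rank rests on a single gene. The thrombocyte sum, 5.96 CPM, was the highest of the 11 tumors, and the stroma and endothelium sum, 11.1 CPM, the second highest of the high tumors. Most of the thrombocyte sum came from THBS1 genes, at 1.99 and 2.93 CPM, while itga2b, mpl and GP1BB were at 0.473, 0.189 and 0.379 CPM. The part of these cells in the pattern was not tested.

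The opposite lean was found in 8.4.1.1.1, also a high tumor, where 57 of 76 genes (75.0%) lay above their 11-tumor median, against 42.4% of all genes tested. Tumor 7.2.1 had 47 of 76 above (61.8%) and 2.1 had 25 (32.9%). With TMM scaling the 3 low tumors lay inside this range, with 41 of 76 in 9.2, 33 in 10.2 and 32 in 12.2. These counts depend on scaling. With total counts in place of TMM factors 5 of the 11 tumors moved: 8.4.1.1.1 to 42, 4.3.1 to 46 and 2.1 to 7, and the low tumors 9.2 to 52 and 10.2 to 46, so that 9.2 lay above every high tumor. Tumor 13.1.1 had 15 under that scaling and 12 with RLE factors.

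Other genes of the splicing pathway were looked at as a fixed list of 123 genes outside the 76, of which 116 were tested. Of these, 3 were higher and 1 was lower in high tumors, where 9.20% of all genes passed either way. At an unadjusted p under 0.05, 7 were higher and 8 lower, against 13.2% and 12.3% of all genes, so both counts lie below the shares of all genes. The median log2 fold change was -0.03. The 3 higher genes are PTBP2 (15901), nova1 and RBFOX3 (10083), and copies of each did not pass. The core partners (U2 and branch-point partners, tri-snRNP and U6 partners, catalytic-step factors, exon junction and export genes, 61 tested) had 0 called in either direction, with 0 higher and 4 lower at an unadjusted p under 0.05.

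PTBP2, the neuronal relative of the splicing repressor PTBP1, had 67.1 to 104 CPM in the high tumors, against 52.4 CPM in 9.2, 26.2 CPM in 10.2 and 36.1 CPM in 12.2. The groups did not overlap, and the log2 fold change of 1.11 ± 0.24 (SE) had an edgeR adjusted p of 0.0153, which became 0.086 without 10.2. This is identifier 15901; the other PTBP2 gene, 01947, had an estimate of -0.26 ± 0.16 (SE). nova1, a KH-domain regulator, had 0.976 to 4.41 CPM in the high tumors, against 0.0712 CPM in 9.2, 0.129 CPM in 10.2 and 0 in 12.2. The groups did not overlap and the edgeR adjusted p was 0.00631. No fold is given, since its size rests on a handful of counts in the low tumors. The other gene of that name, NOVA1 (17673), had 8.06 to 112 CPM in the high tumors, against 39.01 CPM in 9.2, 69.7 CPM in 10.2 and 26.4 CPM in 12.2, with an estimate of 0.36 ± 0.78 (SE).

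RBFOX3 (10083), which binds GCAUG, had 0.0862 to 107 CPM in the high tumors and 0 counts in all 3 low tumors, so no fold is given. Its edgeR adjusted p was 0.0146, and 0.0584 without 10.2, and limma-voom gave 0.421. The other RBFOX3 gene, 74310, lay the other way, with 0 to 2.08 CPM in the high tumors, against 2.63 CPM in 9.2, 6.70 CPM in 10.2 and 1.60 CPM in 12.2. Its estimate was -1.69 ± 0.75 (SE), with an edgeR adjusted p of 0.181, and the groups overlapped. rbfox2 had an estimate of -0.79 ± 1.02 (SE). The lower gene, srrm1, encodes an SR-related coactivator. It had 359 to 662 CPM in the high tumors, against 843 CPM in 9.2, 637 CPM in 10.2 and 1002 CPM in 12.2, with a log2 fold change of -0.79 ± 0.22 (SE) and an adjusted p of 0.0471. That call was lost with RLE factors (adjusted p = 0.0509), with no low-count filter (0.0692) and when any of 9 of the 11 tumors was left out.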

How the data were processed

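The values deposited by the authors are raw counts of reads per gene for each library, not normalized. Reads were handled with STAR, featureCounts and Picard on the GRCz10 build, per the submitters' processing notes. No version, annotation release or strand setting is given in the sources used here, so reads of overlapping genes cannot be told apart. Symbols came from a name table (26269 of 32105 identifiers). No gene lengths were used, so levels are compared between tumors and not between genes. Libraries of a tumor were summed, since the tumor was the unit. Before summing, the 2 libraries of each of 9 tumors differed by more than sampling noise (chi-square per degree of freedom 1.33 to 34.0). Library totals were 6015050 to 16951341 counts, and counting intervals cover counting error only.

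Genes passing filterByExpr were fitted with edgeR 4.0.16 (TMM, quasi-likelihood test) in R 4.3.3, with Benjamini-Hochberg adjustment over all genes tested. Alternatives used limma 3.58.1 and DESeq2 1.42.0. Figures used matplotlib 3.10.9. The fits were tested on simulated data. CPM are TMM-scaled; log2 values used a prior count of 2. The set of genes, pairs and lists was chosen with earlier results of these data known. The other splicing genes matched 120 of 126 list entries and the markers 52 of 61. Genes named are those called, those of non-overlapping pairs, the smallest p of each role, the 5 largest spreads, and others named after their values were seen. Results of a few genes that count in the totals are not reported here.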

Additional observations from a re-analysis of the deposited data

Results flagged for a closer look

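In 39 groups of 8 values, a value per high tumor, 4 held a tumor far from the rest. In independent groups that were not selected, chance alone gives this in about 1 group in 20. The groups here share genes and tumors, and some genes were picked for their spread, so that rate does not apply to them. Tumor 8.3 accounts for 3 of the 4. HNRNPK (07034) was at 206.2 CPM in 8.3, with the next high tumor at 152.8 CPM and the lowest at 123.2 CPM. SF3A1 was at 392.6 CPM in 8.3, with the next high tumor at 229.2 CPM and the lowest at 147.4 CPM. The log2 ratio of HNRNPK (07034) over HNRNPK (18914) was -0.489 in 8.3, with the next high tumor at -0.04 and the other end at 0.29. In tumor 15.2 the log2 ratio of U2AF2 (11740) over U2AF2 (12505), copies of the gene for the large U2AF subunit that binds the polypyrimidine tract, was 0.9143, with the next high tumor at 0.39 and the other end at 0.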

How the results depend on the processing

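The count of 0 called genes among the 76 held with RLE and upper-quartile factors, both other filters, limma-voom and a 0.01 threshold. It became 3 with DESeq2, 17 with libraries as units under the replicate block and 17 with libraries as units and no pairing, and 0 to 1 when a tumor was left out. Libraries of a tumor share their source, so those p-values are too small. Differences between the libraries of a tumor, first minus second, correlated at -0.177 to 0.271 (median -0.009) over 18 pairs of a high and a low tumor. Pairs of tumors with the same label were not examined, so a shared effect of library number was not excluded. Without 12.2 the count of 0 became 1 with DESeq2, 9 under the replicate block, 11 with no pairing, and 0 to 1 with a further tumor left out. Shares over all genes were not counted for these settings without 12.2. Over all genes the 1473 calls became 2828 with DESeq2, 4742 under the replicate block, 4960 with no pairing, 477 at 0.01, and 599 (without 10.2) to 1789 (without 8.3) when a tumor was left out. Counts of genes above their 11-tumor median moved in 5 tumors with total counts as scaling. No setting gave a paralogue pair with an adjusted p under 0.05, which a single shifted pair could not have reached in this test. Estimates near zero changed sign. With limma-voom srsf3a turned to -0.2978, and leaving out a tumor gave -0.332 to 1.7086. hnrnph3 turned to 0.0425 under the replicate block and 0.0414 with no pairing, and leaving out a tumor gave -0.3752 to 0.3922. SNRPD3 (76283) gave -0.2516 to 0.0328 with a tumor left out. The ratio of SRSF3 (59360) over srsf3a turned to -0.2898 with a prior count of 8, and gave -0.9587 to 1.0991 with a tumor left out. On leaving out a tumor, SRSF3 (25397) over srsf3a gave -0.2562 to 1.3008, the U2AF2 pair -0.1907 to 0.0302 and hnrnpa0a over hnrnpa0l -0.0673 to 0.2594. The causes were not tested. With 3 low tumors, small differences are out of reach, and srsf3a and hnrnpa3 are limited by low counts.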
